A study of Mus musculus with 24 samples.

Results

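Water deprivation was compared with free access to water in the kidneys of female C57BL/6J mice aged 10 weeks, with 5 deprived and 6 watered of the 24 libraries in the series, the other 13 being from males. The members were chosen by their titles alone, and each of the 17592 genes that passed a filter on low values entered the comparison. Deprived mice had food but no water for 9 to 11 h, and watered mice had both, and all kidneys were collected around midnight, 6 h into the active period. The clock time the labels give for removing the water does not quite add up to that span. All groups share the strain, age, food and hour of collection, and no animal carried a transgene or deletion that the labels name. RNA came from part of 1 kidney per library, was selected for poly(A) tails and was sequenced in bulk. Nothing in the labels says whether each library came from a different animal, so p-values measure the spread between these samples. One label conflicts: deprived female 5 has a title and library code that place it in the deprived group, and a treatment field that says free access to water. It was kept as deprived by its title.

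Total reads per library were 15017319 to 28227306 in the deprived and 19913110 to 29398960 in the watered females (exact permutation test over 462 splits, two-sided p = 0.19, where the smallest possible p is 0.0043). Nephron markers were high in every library, with the 15 proximal tubule markers summing to normalized counts of 320151 to 412039.5. Deprived female 1 stood apart from the others. It had the fewest reads, and the balance of medullary over cortical markers was -0.597 (log2) in it, against -1.12 to -0.943 in the other 4 deprived and -1.05 to -0.921 in the watered females. The mean balance did not differ between the groups beyond its spread (exact permutation test, two-sided p = 0.94), but the deprived mean includes deprived female 1. Deprived females 3, 4 and 5 lay at -1.1203, -1.0506 and -1.1248, below the lowest watered value of -1.0473. Watered female 6 and deprived female 1 gave 1.90% and 1.07% of their reads to the unnamed gene ENSMUSG00000119584, against 0.268% to 0.724% in the other female libraries. Mitochondrially encoded transcripts took 8.54% to 9.14% of the reads in deprived and 9.02% to 10.6% in watered females (exact permutation test, two-sided p = 0.043).

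A kidney answers a lack of water first in the collecting duct. Vasopressin released by the pituitary binds its receptor on principal cells, raises cyclic AMP, moves the water channel aquaporin-2 to the apical membrane and, over hours, raises its transcription. Water then leaves the cell through aquaporin-3 and aquaporin-4 on the other side. In the medulla, where the interstitium is salty, cells balance the outside tonicity by taking up betaine, inositol and other organic osmolytes under control of the transcription factor Nfat5. The kidney also has a strong circadian clock, in which Bmal1 and Clock drive genes such as Nr1d1, Dbp and the Per genes, whose products feed back on it.

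Across all genes, 139 of 17592 changed (0.79%; limma, Benjamini-Hochberg adjusted p below 0.05), of which 79 were higher (0.449%) and 60 lower (0.341%) in deprived females. At an unadjusted p below 0.05 there were 1711 genes (9.73%). Changes were small: 9 genes rose and 5 fell by more than 1 on the log2 scale, 74 moved by less than 0.5, and the median change was 0.51 among those that rose and -0.46 among those that fell. A mean normalized count over 1000 in watered females was found for 26 of the 60 genes that fell and 16 of the 79 that rose. The 6 watered and 5 deprived values did not overlap in 112 of the 139 genes. Over all tested genes, 44.9% lay above 0 and 55.1% below. Among them the groups did not overlap with deprived higher in 203 (1.15%) and with deprived lower in 234 (1.33%).

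**Figure D1:**
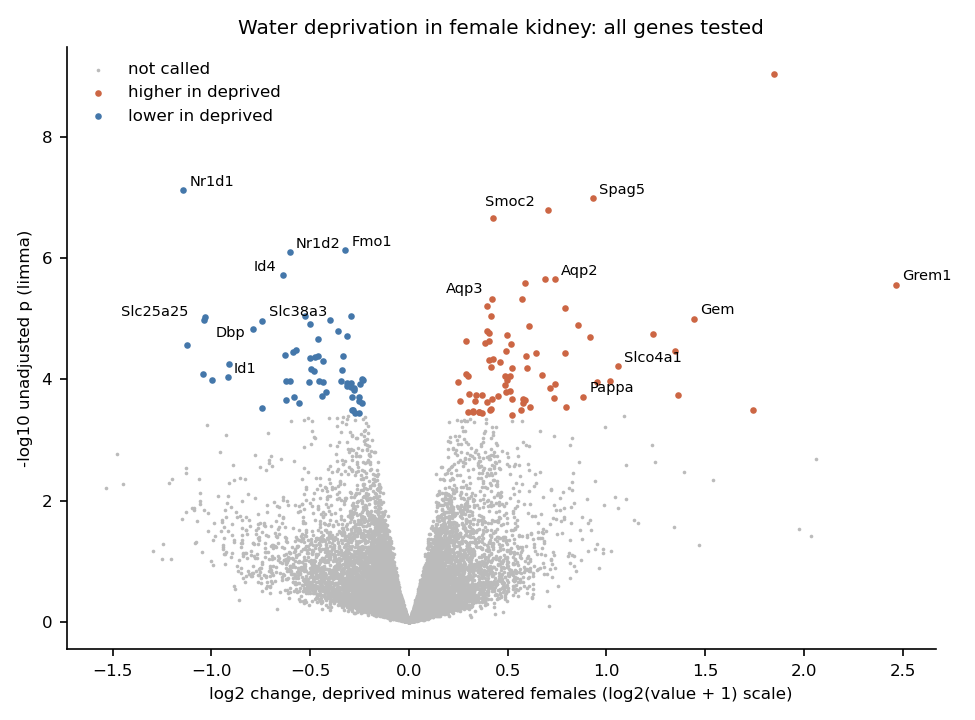
Log2 change (x axis, deprived minus watered females, on the log2(value + 1) scale) against minus log10 of the unadjusted limma p (y axis) for all 17592 genes tested. Orange and blue points mark the 79 genes called higher and the 60 called lower, with some of the named genes labelled.

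How firm a call was depended on single libraries. When each of the 24 libraries was left out in turn, 46 of the 139 genes were called in every fit. The count ran from 66 (without watered female 2) to 215 (without deprived male 7). Of these fits 11 left out a female library, and the same 46 genes were called in all of those. A left-out male library changes only the estimated spread of a gene, not its female log2 change. Counts out of 24 fits given below mix both kinds of fit. Within the female groups it also came to 68 without deprived female 5, 70 without deprived female 4, 81 without deprived female 3, 86 without watered female 5 and 172 without deprived female 1. Leaving out watered female 6 and deprived female 1, both high in ENSMUSG00000119584, gave 107 genes, 87 of them among the 139. When deprived males 6 and 7, also high in that gene, were left out with them, 4 libraries in all, there were 741 genes. Of these 741, 135 were among the 139. Counting deprived female 5 as watered, as its treatment field has it, left 2 genes. This library could be placed with genes chosen without it: of the 68 genes called from the other 4 deprived females, it lay on the deprived side of the watered mean in 68, nearer to the mean of the other deprived females in 61 and beyond all 6 watered females in 66.

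Of 8 water channel genes tested, Aqp2 and Aqp3 were higher and none was lower, and the median over the list was -0.12 against -0.02 over all genes tested. Aqp2, the vasopressin-regulated apical channel of principal cells (chromosome 15, 99579055 to 99584547, GRCm38), had normalized counts of 6166 to 11258 with a median of 8728 in the 6 watered females, and 15348, 14504, 13158, 15977 and 12719 in deprived females 1 to 5. Every deprived library lay above every watered one. Its mean went from 8697 ± 1661 (SD, n = 6) to 14341 ± 1392 (SD, n = 5), or 0.74 ± 0.12 on the log2 scale (SE, limma adjusted p = 0.004). Aqp3, the basolateral exit channel of the same cells, ran from 2119.7 to 2945 with a median of 2608 in watered females and was 3463, 3563, 3601, 3563 and 3196 in deprived ones, again with no overlap. That was or 0.42 ± 0.07 on the log2 scale (SE, limma adjusted p = 0.006). Both calls held in all 24 fits that left out 1 library. In bulk tissue more cells of a type and more RNA per cell cannot be told apart, so the other principal cell markers are given beside these: of 9 tested, Aqp2 and Aqp3 rose, Hsd11b2 fell, and the median was -0.14. Their summed normalized count was 18414 to 24565 in watered and 24742 to 28497 in deprived females. That sum includes Aqp2 and Aqp3, so it is not separate from their rise. The receptor gene Avpr2 averaged under 10 and was not tested. Aqp1, the channel of proximal tubule and thin limb, averaged 22336 and 20893 (log2 change -0.10 ± 0.06, limma adjusted p = 0.68). Aqp4 changed by -0.14 (limma adjusted p = 0.89).

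Aqp5, a channel better known from glands and lung, was named after its values were seen. It starts 6234 bases past the annotated end of Aqp2 on the same strand. Its normalized counts were low, at 1.99 to 19.9 in watered females and 28.2, 49.4, 22.8, 24 and 49.3 in deprived ones, or 1.74 ± 0.42 on the log2 scale (SE, limma adjusted p = 0.044). It was called in 8 of the 24 fits that left out 1 library, with the largest adjusted p of 0.14 without deprived female 5, and whether reads running on from Aqp2 entered its count was not tested.

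Of 12 genes for tonicity and organic osmolytes 3 rose and none fell, 10 lay above 0, and the median was 0.15. The count was 1 without watered female 2, deprived female 3 or deprived female 5. Slc6a12, the betaine transporter, had normalized counts of 68.7 to 106 with a median of 95.2 in watered females, and 187, 159, 132, 168 and 163 in deprived females. The groups did not overlap, and the log2 change was 0.79 ± 0.14 (SE, limma adjusted p = 0.0073), held in all 24 fits with 1 library left out. Slc5a3, the sodium-coupled inositol transporter, ran from 4256 to 4948 with a median of 4336 and reached 5670.2, 5103, 6882, 5824 and 6489. No deprived value fell within the watered range (log2 change 0.41 ± 0.09, limma adjusted p = 0.019). Its exons overlap those of Mrps6 on the same strand, and Mrps6 averaged 1121 and 1168 (log2 change 0.05, limma adjusted p = 0.99). Slc38a2, a neutral amino acid transporter that is also induced by tonicity, went from a watered range of 1374 to 2361 to values of 1998, 2984, 3167, 3164 and 3495. Only deprived female 1 overlapped the watered range, and the log2 change was 0.60 ± 0.13 (SE, limma adjusted p = 0.019). Calls of Slc5a3 and Slc38a2 were lost in 3 and 4 of the 24 fits, with largest adjusted p of 0.073 without deprived female 3 and 0.078 without deprived female 5. Akr1b3, the aldose reductase that makes sorbitol, had the largest difference of the list and did not pass. It ran from 1173 to 3415 in watered females and was 4757, 5145, 2944, 4209 and 3106 in deprived ones, so the groups overlapped (log2 difference 1.10 ± 0.32, limma adjusted p = 0.13). Nfat5 itself averaged 2728 and 2729 (log2 difference -0.01 ± 0.12, limma adjusted p = 0.99), with deprived female 1 at 1874 and the other 4 at 2840.4 to 3045.

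The start regions of both kinds of gene are shown because these genes moved together. The windows are the 250 bases before a RefSeq transcription start (GRCm38.p6), read 5′ to 3′ on the gene's strand, with Aqp2 at chr15:99578806-99579055 (plus strand) and Slc6a12 at chr6:121342324-121342573 (plus strand, the first of its 5 starts). Capitals mark CACGTG, the E-box bound by Bmal1 and Clock, in Aqp2, and TGGAAA, the core of the tonicity element bound by Nfat5, in Slc6a12.
Aqp2: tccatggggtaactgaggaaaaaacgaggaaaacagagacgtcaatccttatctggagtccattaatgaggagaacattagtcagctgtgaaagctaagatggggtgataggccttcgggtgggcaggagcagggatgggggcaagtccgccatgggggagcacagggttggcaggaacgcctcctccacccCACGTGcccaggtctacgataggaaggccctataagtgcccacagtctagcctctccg
Slc6a12: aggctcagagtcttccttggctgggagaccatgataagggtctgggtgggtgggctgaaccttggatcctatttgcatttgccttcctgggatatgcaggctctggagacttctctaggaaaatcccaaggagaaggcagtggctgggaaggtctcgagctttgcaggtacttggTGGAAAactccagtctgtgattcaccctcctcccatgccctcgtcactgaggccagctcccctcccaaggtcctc
The E-box began 58 bases before the Aqp2 start and the tonicity core 75 bases before the Slc6a12 start. Both strands were searched, and of 32851 mouse windows of this length 6.02% held CACGTG and 18.6% held TGGAAA. The other 4 windows of Slc6a12 did not hold TGGAAA, and these shares are per single window. None of the motifs searched lay in the windows of Aqp3, Slc5a3 or Slc38a2. The choice of the Aqp2 and Aqp3 windows was made after their values were seen. No element for cyclic AMP signalling was among the motifs searched, so none is marked in the Aqp2 window.

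**Figure D2:**
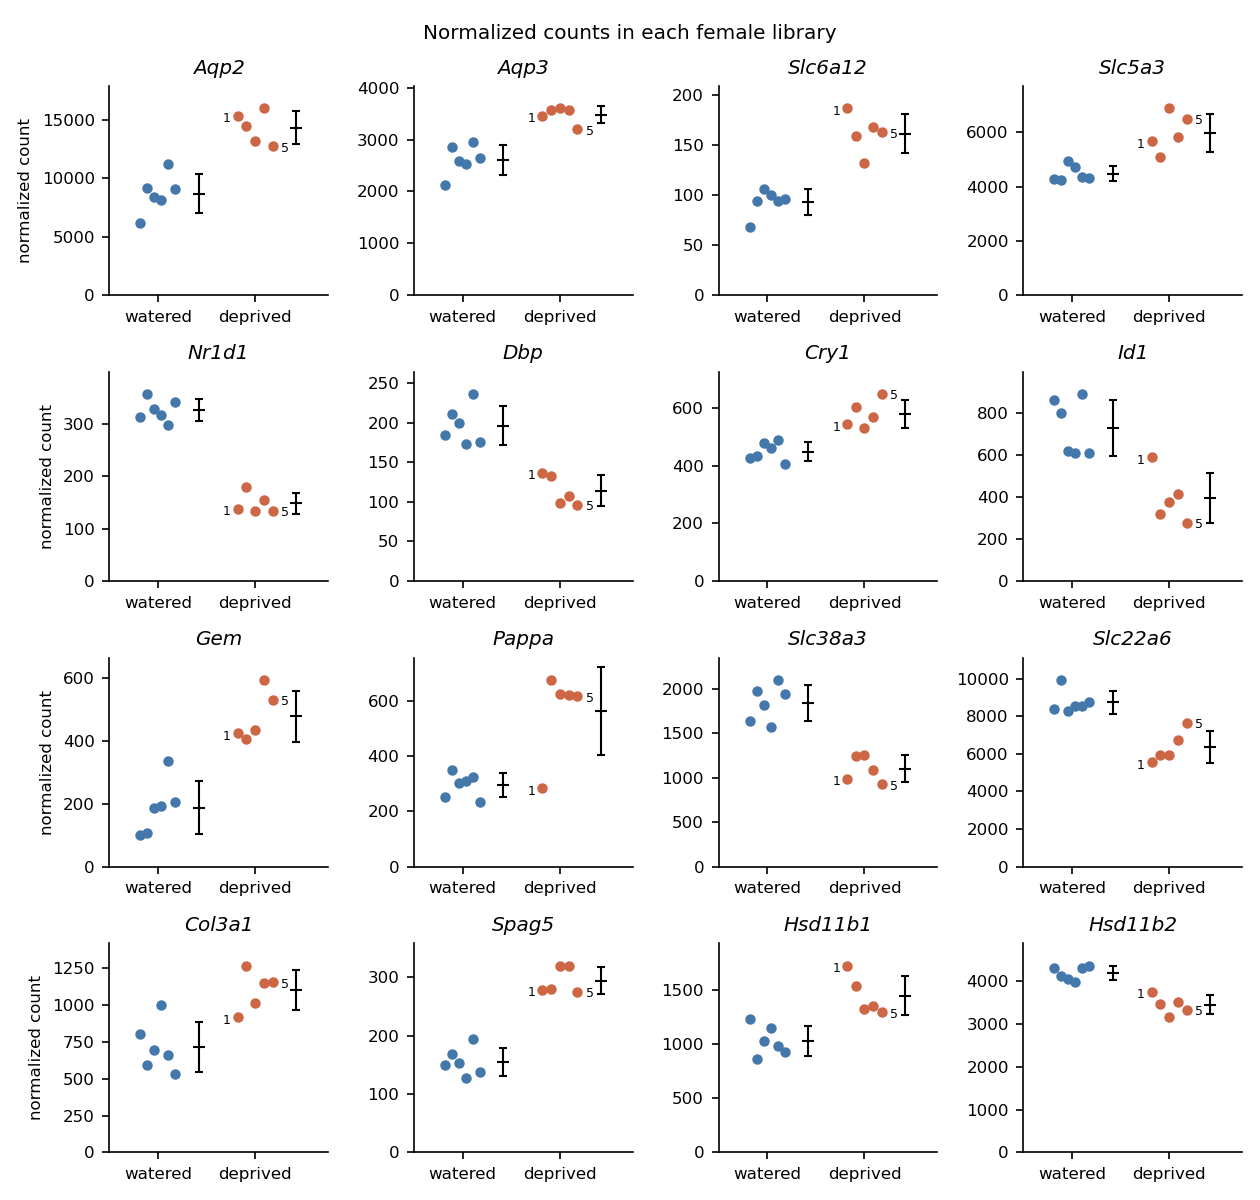
Normalized counts (y axis, from 0) in each female library for 16 genes, with watered females in blue and deprived females in orange, and the mean ± SD to the right of each group. The numbers 1 and 5 mark deprived female 1, the library that stood apart, and deprived female 5, whose labels conflict; Aqp2 and Nr1d1 do not overlap between the groups, while deprived female 1 lies with the watered females for Pappa.

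Other parts of the water and salt machinery gave few calls. None of 9 tested genes for vasopressin signalling and urea transport passed. The urea transporter gene Slc14a2 averaged 2584 in watered and 2761 in deprived females (log2 difference 0.10 ± 0.11, limma adjusted p = 0.90). Of 20 genes for salt transport in the thick ascending limb and distal tubule none passed and the median was -0.07. Slc12a1, the furosemide-sensitive cotransporter, averaged 36608 and 36109, and Slc12a3, the thiazide-sensitive one, 40855 and 38750.5 (limma adjusted p = 0.99 and 0.96). Slc12a3 was 23658 in deprived female 1 and 41332 to 44972 in the other 4. None of 7 sodium pump genes and none of 10 renin-angiotensin genes passed, and the renin gene Ren1 averaged 1701 and 1963 (log2 difference 0.22 ± 0.17, limma adjusted p = 0.81).

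Among 12 genes for sodium uptake and mineralocorticoid action in the collecting duct, 1 rose and 1 fell. Hsd11b2, which inactivates glucocorticoid and so keeps the mineralocorticoid receptor open to aldosterone, ran from 3993 to 4366 with a median of 4216 in watered females and was 3757, 3477, 3157, 3526 and 3333 in deprived ones. Its groups did not overlap, and the log2 change was -0.28 ± 0.07 (SE, limma adjusted p = 0.044), called in 9 of 24 fits with 1 library left out (largest adjusted p 0.14 without deprived female 3). Leaving out any 1 watered female, or deprived female 2, 3, 4 or 5, lost this call. Hsd11b1, the isoenzyme that regenerates glucocorticoid, moved the other way and was named after its values were seen. It ran from 866 to 1234 and reached 1729, 1538, 1332, 1358 and 1296, without overlap (log2 change 0.49 ± 0.11, limma adjusted p = 0.03). This call was lost in 7 of the 24 fits, with a largest adjusted p of 0.099 without watered female 2. Tsc22d3, a transcript induced by glucocorticoid and aldosterone that encodes GILZ, ran from 881 to 1538 and was 1549.8, 1400.3, 2060.3, 1741 and 1814. Deprived female 2 overlapped the watered range (log2 change 0.51 ± 0.12, limma adjusted p = 0.028, lost in 6 of 24 fits, largest adjusted p 0.1 without deprived female 3). Tsc22d3 was also the only one called of 19 genes that respond to glucocorticoid, whose median was 0.20. The kinase gene Sgk1 ran from 2789.6 to 6925 and from 4598 to 7629 (log2 difference 0.49 ± 0.20, limma adjusted p = 0.37), and Fkbp5 from 942 to 1597 and from 1095 to 3164 (log2 difference 0.30, limma adjusted p = 0.85). Both sets of values overlapped widely. Of 21 immediate early genes none passed, while 20 lay above 0 with a median of 0.19.

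Of 23 clock genes tested, 4 fell and 1 rose, and the median over all was 0.02. The 4 that fell were Nr1d1 and Nr1d2, which repress Bmal1, the transcription factor gene Dbp, and Per3. The 1 that rose was the repressor gene Cry1. Nr1d1 had normalized counts of 299 to 357 with a median of 323 in watered females, and 138, 180.1, 134, 154 and 134 in deprived ones. The groups lay far apart, at means of 326 ± 21.1 (SD, n = 6) and 148 ± 19.9 (SD, n = 5), or -1.14 ± 0.15 on the log2 scale (SE, limma adjusted p = 0.0006). Nr1d2 ran from 849 to 1140.1 and fell to 762, 748, 562, 592 and 701 (log2 change -0.60 ± 0.09, limma adjusted p = 0.002). Dbp ran from 173 to 236 and fell to 137, 133, 98, 107 and 95.9 (log2 change -0.79 ± 0.15, limma adjusted p = 0.0093). For these genes too the groups did not overlap, and all 3 calls held in 24 of 24 fits with 1 library left out. Per3 ran from 472 to 617 and was 357, 435, 350.3, 294 and 349.9 (log2 change -0.58 ± 0.12, limma adjusted p = 0.014), lost only without deprived female 4 (adjusted p = 0.057). Cry1 ran from 406 to 489 and was 544, 605, 532, 570 and 649, without overlap, but its change of 0.37 ± 0.09 (SE, limma adjusted p = 0.046) was called in 6 of the 24 fits and had a largest adjusted p of 0.16 without deprived female 5. Leaving out any 1 watered female, or deprived female 3, 4 or 5, lost the call of Cry1. Exons of Nr1d1 overlap those of Thra on the other strand, and those of Dbp overlap Sphk2; whether strand was used in counting is not given in the sources used here. Thra averaged 1309 and 1361, and Sphk2 1259 and 1138 (limma adjusted p = 0.83 and 0.38).

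The rest of the clock did not pass. Bmal1, listed as Arntl, ran from 482 to 665 in watered females and was 526, 603, 782, 736 and 774 in deprived ones (log2 difference 0.29 ± 0.12, limma adjusted p = 0.39). Per1 averaged 1308 and 1483 and Per2 717 and 825, with adjusted p of 0.85 and 0.86 by limma. Nfil3, which represses the targets of Dbp, was nearest to the threshold (log2 difference 0.52, limma adjusted p = 0.054).

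The windows before the starts of Per3 and Cry1 are shown because these 2 clock genes moved in opposite directions. Per3 lies at chr4:151044666-151044915 (minus strand) and Cry1 at chr10:85185055-85185304 (minus strand), again RefSeq on GRCm38.p6, 5′ to 3′ on the gene's strand. Capitals mark TTATGTA, a core of the D-box through which Dbp and Nfil3 act, in Per3, and the E-box CACGTG in Cry1.
Per3: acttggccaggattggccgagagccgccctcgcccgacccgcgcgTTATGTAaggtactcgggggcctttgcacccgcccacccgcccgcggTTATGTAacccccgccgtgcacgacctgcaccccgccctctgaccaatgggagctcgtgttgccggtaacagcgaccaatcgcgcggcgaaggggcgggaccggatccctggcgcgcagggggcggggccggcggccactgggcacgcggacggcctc
Cry1: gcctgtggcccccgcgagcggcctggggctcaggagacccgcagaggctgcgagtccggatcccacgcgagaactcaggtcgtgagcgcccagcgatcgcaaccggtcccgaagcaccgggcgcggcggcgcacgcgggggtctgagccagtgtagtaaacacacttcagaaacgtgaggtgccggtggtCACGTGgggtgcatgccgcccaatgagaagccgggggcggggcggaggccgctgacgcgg
Per3 held the D-box core at 205 and 158 bases before its start, and Cry1 held the E-box at 60 bases. The D-box core, chosen after the values were seen, occurred in 2.34% of all 32851 windows on either strand. AGGTCA, an element bound by Nr1d1 and the ROR receptors, occurred in 14% and was found in the window of Nr1d2 (77 bases before the start). Nr1d1 held the tonicity core TGGAAA at 203 and 14 bases before its start and Dbp held none of the 4 motifs. The E-box CACGTG was absent from the windows of Nr1d1, Nr1d2, Dbp and Per3. Only this exact sequence in the 250 bases before each start was searched. Variant E-boxes and sites elsewhere in these genes were not looked for.

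Of 15 genes of the bone morphogenetic protein (BMP) pathway and its ID targets, 2 rose and 2 fell. This list, like the others, was chosen with earlier results of these data known. Over all genes tested 0.449% were called higher and 0.341% lower. Grem1, which binds and blocks BMPs outside the cell, was nearly silent in watered females, at 0.995 to 7.46 with a median of 5.09, and was 20.5, 37.7, 36.6, 28.8 and 21.2 in deprived ones. The ranges were far apart, and the log2 change was 2.47 ± 0.41 (SE, limma adjusted p = 0.004), the largest of the 139. Id1 and Id4 encode helix-loop-helix inhibitors that BMP induces. Id1 ran from 608 to 888 with a median of 707 and was 588, 317, 376, 415 and 275, so every deprived value lay below the watered ones, with deprived female 1 closest (log2 change -0.92 ± 0.20, limma adjusted p = 0.023). Id4 ran from 1408 to 1667 and was 1382, 977, 883, 956 and 889, again without overlap and with deprived female 1 closest (log2 change -0.64 ± 0.10, limma adjusted p = 0.004). Grem1 and Id4 were called in all 24 fits with 1 library left out, and Id1 in 18, with a largest adjusted p of 0.095 without deprived female 5. Id2 and Id3 differed by -0.36 and -0.54 (limma adjusted p = 0.24 and 0.18).

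In the Wnt pathway 2 of 16 genes rose and none fell, both of them coding for secreted proteins related to Wnt antagonists. Dkk3 ran from 357 to 532 with a median of 454 and was 566, 652, 671, 593 and 675, without overlap (log2 change 0.52 ± 0.10, limma adjusted p = 0.011). Frzb ran from 164 to 197 and was 238, 202, 231, 203 and 249 (log2 change 0.36 ± 0.09, limma adjusted p = 0.045), called in 7 of 24 fits (largest adjusted p 0.15 without deprived female 5). Pappa, the protease that frees insulin-like growth factor from its binding proteins, was the 1 gene called of 18 in that pathway. It ran from 235 to 349 with a median of 307 in watered females and was 677, 625, 624 and 617 in deprived females 2 to 5, while deprived female 1 stood at 284 among the watered. With that library the log2 change was 0.88 ± 0.20 (limma adjusted p = 0.032), and without it 1.11 (limma adjusted p = 0.0016). The call was lost in 9 of the 24 fits, with the largest adjusted p of 0.11 without deprived female 2. Gem, a small GTP-binding protein that restrains calcium channels, was the 1 called of 12 tested in its list. Its watered values ran from 102 to 337 with a median of 189.9 and its deprived values were 425, 407, 436, 595 and 532, without overlap (log2 change 1.44 ± 0.26, limma adjusted p = 0.0079). Ddit4l, an inhibitor of mTOR signalling, ran from 256 to 403 and was 428, 531, 599, 608 and 572 (log2 change 0.69 ± 0.11, limma adjusted p = 0.004), the 1 called of 12 stress genes. Ctgf, the matricellular growth factor also known as Ccn2, rose from 1526 ± 219 (SD, n = 6) to 2245 ± 192 (SD, n = 5), with limma adjusted p = 0.044 and the call lost in 12 of 24 fits (largest adjusted p 0.13 without watered female 2).

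Of 23 genes for amino acid transport and branched-chain amino acids, Slc38a2 (above) and Bcat1 rose and Slc38a3 fell. Slc38a3, the basolateral transporter that brings glutamine into proximal tubule cells for ammonia production, ran from 1571 to 2101 with a median of 1878 and was 989, 1245, 1259.8, 1091 and 925 in deprived females. Its groups were well apart (log2 change -0.74 ± 0.14, limma adjusted p = 0.0079, held in 24 of 24 fits). It was also the 1 called of 13 genes for ammonia, bicarbonate and citrate transport, a list with a median of -0.17. That count went to 5 without deprived male 7 and to 4 without watered male 5. Bcat1, the cytosolic branched-chain aminotransferase, ran from 221 to 384 and was 716, 446, 419, 547 and 896 (log2 change 0.95 ± 0.21, limma adjusted p = 0.023). Every deprived value lay above the watered range, and the call was lost in 6 of 24 fits with a largest adjusted p of 0.1 without deprived female 5. Mthfd2, the mitochondrial folate enzyme, was the 1 called of 18 genes in the response to amino acid shortage run by Atf4 (watered 77.6 to 154; deprived 158, 182, 189, 181 and 241; log2 change 0.74 ± 0.16, limma adjusted p = 0.024, lost in 5 of 24 fits, largest adjusted p 0.1 without deprived female 5). Slc25a25, an ATP-magnesium carrier of the inner mitochondrial membrane, was the 1 called of 44 mitochondrial carriers. It ran from 1989 to 4106 with a median of 3161 and was 1506, 1208, 1322, 1509 and 1799, with no overlap (log2 change -1.04 ± 0.19, limma adjusted p = 0.0079, held in 24 of 24 fits).

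Of 55 organic ion and drug transporter genes, 4 fell, all of them of the Slc22a family, and 2 rose, with a median of -0.09. The count of 4 came to 1 without watered female 2 or 5 or deprived female 4 or 5, and to 2 without watered female 3 or 6 or deprived female 1 or 3. Slc22a6, the organic anion transporter OAT1, ran from 8266 to 9926 with a median of 8534 and was 5545, 5959.5, 5931, 6728 and 7653. Every deprived value lay below every watered one (log2 change -0.46 ± 0.09, limma adjusted p = 0.011, held in 24 of 24 fits). Slc22a8 (OAT3) went from a mean of 14430.5 ± 649.5 (SD, n = 6) to 11917 ± 1002 (SD, n = 5), Slc22a13 from 3241 ± 221 to 2718 ± 137 and the carnitine-related cation transporter gene Slc22a4 from 1347 ± 104 to 1064 ± 101, with the same n. Their log2 changes were -0.28, -0.25 and -0.34 (limma adjusted p = 0.028, 0.046 and 0.019), and they were called in 16, 6 and 20 of 24 fits, with largest adjusted p of 0.09 (without deprived female 3), 0.14 and 0.082 (both without deprived female 5). Slco4a1, a thyroid hormone transporter, ran from 386 to 892 and was 941, 1491, 1064, 1402 and 1206, without overlap (log2 change 1.06 ± 0.22, limma adjusted p = 0.018, lost in 2 of 24 fits, largest adjusted p 0.057 without deprived female 4). Abcg1, a cholesterol exporter, ran from 219 to 279 and was 342, 407, 309.7, 397 and 387 (log2 change 0.59 ± 0.10, limma adjusted p = 0.004).

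Of the 15 proximal tubule markers, Slc22a6 and Slc22a8 fell, none rose, and the median was -0.07. Their summed normalized count was 373834 to 412039.5 in watered and 320151 to 382553 in deprived females, with deprived female 1 lowest, and its part in the transporter changes was not tested. Without deprived female 1 the change of Slc22a6 was -0.42 (limma adjusted p = 0.027) and that of Slc22a8 -0.24 (limma adjusted p = 0.067).

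Of 42 cytochrome P450 genes 3 fell and none rose, with a median of -0.06. The count came to 0 without watered female 1, 3 or 5, to 1 without watered female 2 or 4 or deprived female 2, 3 or 5, and to 7 without deprived male 7. Cyp2c44, an arachidonic acid epoxygenase, went from 1215 ± 64.7 (SD, n = 6) to 993 ± 55.4 (SD, n = 5), or -0.29 on the log2 scale (limma adjusted p = 0.032), called in 17 of 24 fits (largest adjusted p 0.12 without deprived female 5). Cyp2d9 and Cyp4a12a, whose log2 changes were -0.62 and -0.74 (limma adjusted p = 0.034 and 0.043), belong to gene clusters with close copies, so their counts are uncertain. They were called in 17 and 10 of 24 fits, with largest adjusted p of 0.14 (without deprived female 5) and 0.13 (without deprived female 3), and edgeR did not call Cyp4a12a (adjusted p = 0.18). Fmo1, a flavin monooxygenase abundant in mouse kidney, had normalized counts of 13689.8 to 15548 with a median of 14863 in watered females and 11779.7, 11559.8, 11594, 11762 and 12010.4 in deprived ones. The deprived values were tightly bunched below the watered ones (log2 change -0.32 ± 0.05, limma adjusted p = 0.002, held in 24 of 24 fits). Por, which passes electrons to the cytochrome P450s and was named after its values were seen, went from 8188 ± 906 (SD, n = 6) to 6195 ± 424 (SD, n = 5), with limma adjusted p = 0.0079. Nqo1, a quinone reductase, was the 1 called of 17 Nrf2 targets (watered 765 to 871; deprived 621, 540.2, 553, 675 and 524; log2 change -0.50 ± 0.10, limma adjusted p = 0.015, lost only without deprived female 5, adjusted p = 0.061). Of 25 genes for cholesterol synthesis none passed and 23 lay below 0 with a median of -0.15, and of 21 genes for fatty acid oxidation none passed and 19 lay below 0 with a median of -0.14.

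**Figure D3:**
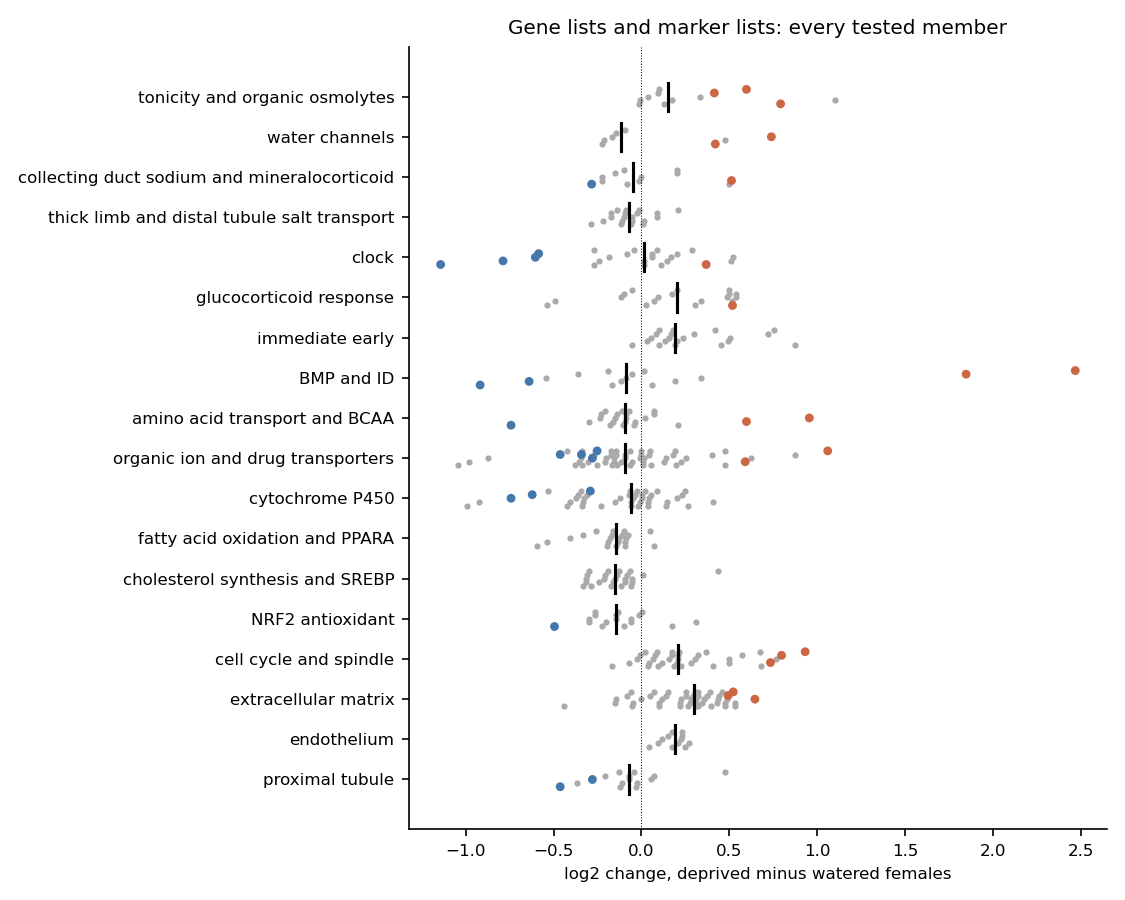
Log2 change (x axis, deprived minus watered females) of each tested member of 18 gene and marker lists. Grey points did not pass, orange and blue points were called higher and lower, and the black bar is the list's median; extracellular matrix genes have a median of 0.30 and cholesterol synthesis genes of -0.15.

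Of 48 extracellular matrix genes 3 rose and none fell, 40 lay above 0, and the median was 0.30. The count was 10 without deprived female 1, 6 without watered female 1 or deprived male 7, 5 without watered male 5 or deprived male 6, and 18 without the 4 libraries high in ENSMUSG00000119584. Col3a1, a fibrillar collagen of interstitial fibroblasts, ran from 532 to 1001 with a median of 677 in watered females and was 915, 1265, 1012, 1149.6 and 1152 in deprived ones, so that deprived female 1 overlapped the highest watered library. The log2 change was 0.65 ± 0.13 (SE, limma adjusted p = 0.014, held in 24 of 24 fits). Col1a2 ran from 1117 to 1675 and was 1742, 2182, 1931, 1932 and 1868, without overlap (log2 change 0.49 ± 0.10, limma adjusted p = 0.014, held in 24 of 24 fits). Col14a1 rose by 0.52 ± 0.13 (SE, limma adjusted p = 0.049) and was called in 7 of 24 fits (largest adjusted p 0.14 without deprived female 2). Smoc2, a secreted matricellular protein, ran from 197 to 281 and was 391, 383, 381, 379 and 445 (log2 change 0.70 ± 0.10, limma adjusted p = 0.00072). Ctsk, a collagen-degrading protease, ran from 70.5 to 114 and was 191, 136, 137, 126 and 132, with deprived female 1 highest (log2 change 0.67 ± 0.14, limma adjusted p = 0.022, lost in 4 of 24 fits, largest adjusted p 0.056 without watered female 2). Emilin1, Ogn and Fbln5, other matrix proteins named after their values were seen, rose by 0.42, 0.52 and 0.37 (limma adjusted p = 0.0079, 0.019 and 0.031), and without watered female 2 the adjusted p of Ogn and Fbln5 was 0.056 and 0.11.

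Markers of cell types other than tubule are given beside these genes. Of 12 stromal and smooth muscle markers 2 rose, which were Col1a2 and Col3a1, and the summed normalized count was 8690.1 to 11607 in watered and 11206 to 13778 in deprived females. Col1a1, Col1a2, Col3a1 and Dcn are in this list and in the extracellular matrix list, so that sum is not separate from the matrix genes. The pericyte and fibroblast receptor genes Pdgfrb and Pdgfra differed by 0.22 and 0.35, and the smooth muscle genes Acta2 and Myh11 by 0.16 and -0.02, and none of the 4 passed (limma adjusted p = 0.45, 0.31, 0.52 and 0.99). All 12 endothelial markers lay above 0, none passed, and their sum was 18375 to 20969.5 in watered and 20569 to 24275 in deprived females, with a median log2 difference of 0.19. Without deprived female 1 or watered male 5, 2 endothelial markers passed. Macrophage markers summed to 2617 to 3297 and 2934 to 3357, lymphocyte markers to 258 to 446 and 393 to 446, and podocyte markers to 11610.3 to 13239.8 and 10641 to 14049. All 6 adipocyte markers tested lay above 0 with a median of 0.37, none passed, and the sum over all 7 in the table was 764 to 2196 in watered and 1126 to 1707 in deprived females. All 6 red blood cell markers lay below 0 with a median of -0.33, none passed, and their sum was 3292 to 4583 and 2837 to 3910.3. The part of cell composition in the matrix changes was not tested.

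Of 35 cell cycle and spindle genes 3 rose and none fell, 31 lay above 0 and the median was 0.21. The count was 1 without watered female 1, 2 or 6 or deprived female 2, 4 or 5. Spag5, a spindle protein, ran from 127 to 194 with a median of 151 and was 278, 279, 319, 319.5 and 275, without overlap (log2 change 0.93 ± 0.13, limma adjusted p = 0.0006, held in 24 of 24 fits). Kif23, a motor of the cleavage furrow, ran from 94.8 to 158 and was 128, 239, 263, 243 and 298, with deprived female 1 inside the watered range (log2 change 0.73 ± 0.17, limma adjusted p = 0.033). The cytokinesis gene Anln went from 21.5 ± 5.9 (SD, n = 6) to 37.4 ± 6.85 (SD, n = 5), with limma adjusted p = 0.041. Kif23 and Anln were called in 16 and 15 of 24 fits, with largest adjusted p of 0.13 (without deprived female 5) and 0.14 (without deprived female 4). Mki67 and Cdk1, which mark cells in cycle, differed by 0.68 and 0.68 and did not pass (limma adjusted p = 0.26 and 0.46).

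Of the 41 gene lists, 21 had no member called, among them heat shock, the unfolded protein response, hypoxia, interferon, tubular injury, ribosomal proteins and the respiratory chain. Among those with 10 or more tested members the median ran from -0.21, for the 13 mitochondrially encoded respiratory chain genes, to 0.19. Of 15 heat shock genes 12 lay above 0 and 7 had an unadjusted limma p below 0.05. For 19 unfolded protein response genes these counts were 16 and 6, and for 17 interferon genes 9 and 0. Over all genes tested the shares were 44.9% and 9.73%. The injury markers Havcr1 and Lcn2 averaged 10.7 and 37.1 in watered and 13.9 and 46.9 in deprived females (limma adjusted p = 0.86 and 0.88). Of the 17 marker lists, 14 had no member called, and in 2 of these, for neutrophils and adrenal cortex, 1 marker of 7 was in the table.

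Some genes that the naming rule took stand outside the groups above. Tmem45a rose from 39.2 to 73.5 and the serotonin receptor gene Htr1b from 66.8 to 122 (log2 change 0.92 and 0.85, limma adjusted p = 0.01 and 0.0085). Mylip, which sends the low-density lipoprotein receptor to degradation, rose from 1244 to 1848, and the thrombin receptor gene F2r from 978 to 1287 (log2 change 0.57 and 0.40, limma adjusted p = 0.006 and 0.0073). Fam101b rose by 0.43 ± 0.06 (SE, limma adjusted p = 0.00077). Ovol1, an epithelial transcription factor, ran from 166 to 208 and fell to 146, 122, 132, 125 and 136 (log2 change -0.50 ± 0.09, limma adjusted p = 0.0085). Slc2a9, the urate and fructose transporter, fell from 698 to 504 (log2 change -0.48, limma adjusted p = 0.019, lost in 3 of 24 fits, largest adjusted p 0.061 without deprived female 5). Slc13a2os, an antisense transcript of the citrate transporter gene Slc13a2, fell by 1.04 on the log2 scale (limma adjusted p = 0.022, lost in 5 of 24 fits, largest adjusted p 0.063 without deprived female 5). Its exons overlap those of Slc13a2, which differed by -0.60 (limma adjusted p = 0.054), and their reads cannot be told apart without strand. Of the 139 genes, 33 share exon sequence with another annotated gene, 30 of them with one on the opposite strand, among them Slc25a25 and Nr1d1, and their counts are uncertain to that extent.

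**Figure D4:**
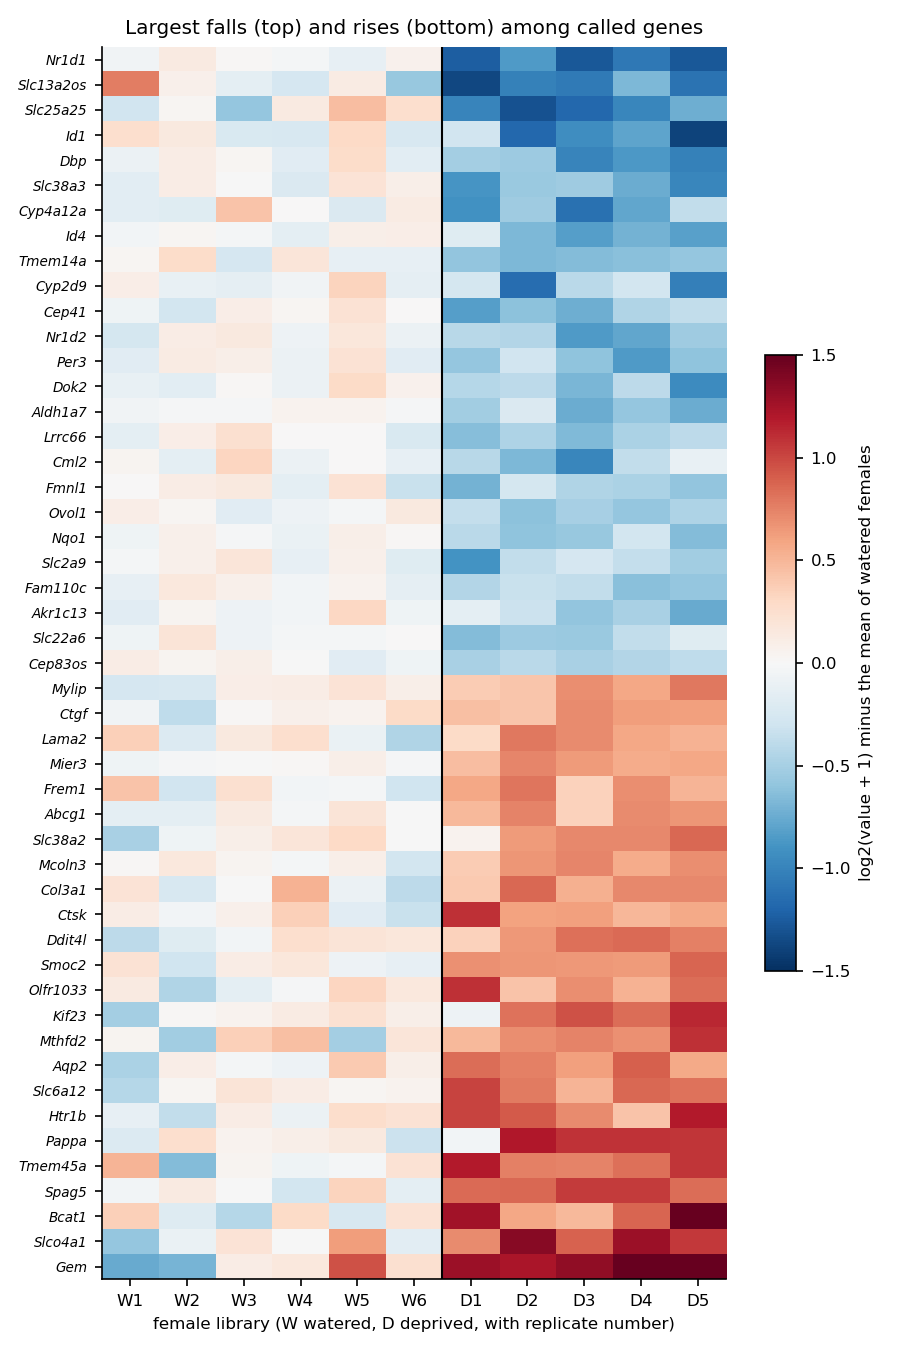
Log2(value + 1) minus the mean of the 6 watered females (colour, red higher and blue lower) in each female library for 49 named genes, the 25 largest falls and 24 of the 25 largest rises among called genes with a mean normalized count of at least 50. Deprived female 1 (D1) is pale for Pappa, Kif23, Id4 and Slc38a2, and deprived female 5 (D5) is coloured like the other deprived libraries for nearly all genes.

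The same contrast in males, with 7 deprived and 6 watered libraries, called 40 genes (0.227%), 25 higher (0.142%) and 15 lower (0.0853%). Of the 139 genes changed in females, 110 moved the same way in males (79.1%), against 53.2% of all genes tested, and 11 were called in both sexes in the same direction, 9 higher and 2 lower. Aqp2 and Aqp3 rose by 0.92 and 0.67 in males (limma adjusted p = 5.2e-05 and 2e-06), Grem1 by 3.22 (limma adjusted p = 3.6e-05), Pappa by 1.17, Kif23 by 0.90 and Ddit4l by 0.71 (limma adjusted p = 0.0023, 0.0061 and 0.0011), while Per3 and Ovol1 fell by 0.58 and 0.57 (limma adjusted p = 0.012 and 0.0012). Tests of the difference between the responses called no gene by limma (smallest adjusted p = 0.077), with 1248 genes (7.09%) at an unadjusted p below 0.05, none by edgeR and 30 by DESeq2. The change was larger in size in females in 130 of the 139 genes and 90 had an unadjusted p of the difference below 0.05, but these genes were chosen for their change in females, which favours that side. For single genes the values were these. The log2 change of Nr1d1 was -0.15 ± 0.14 (SE) in males and -1.14 ± 0.15 (SE) in females. Slc38a3 stood at 0.14 in males against -0.74 in females and Col3a1 at -0.14 against 0.65, and the extracellular matrix list had a median of -0.09 in males. Per3, at -0.58 in both sexes, and Mcoln3, at 0.64 and 0.61, had nearly equal changes.

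**Figure D5:**
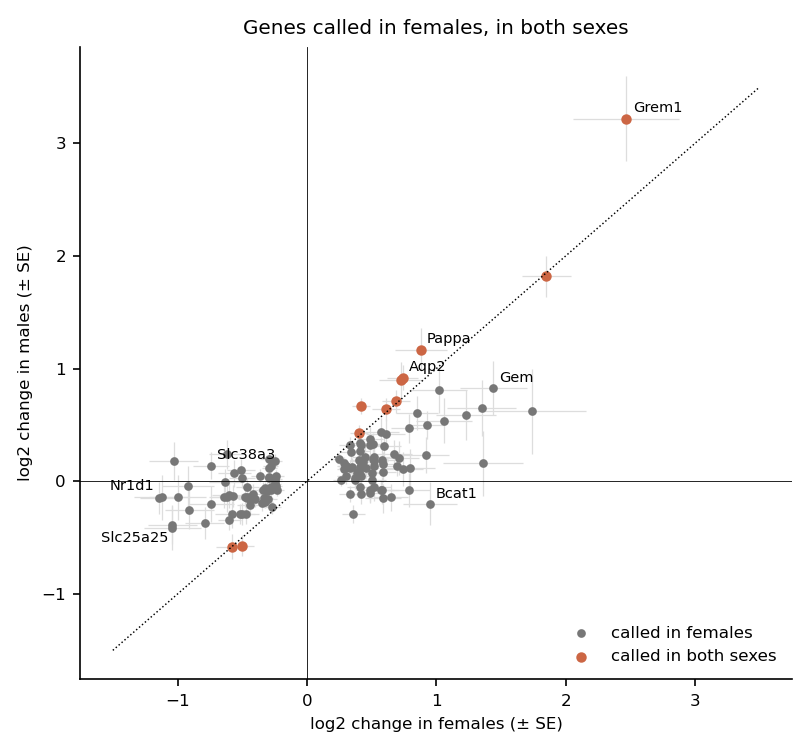
Log2 change in females (x axis) and in males (y axis), each ± SE as grey bars, for the 139 genes called in females; orange marks the 11 also called in males, and the dotted line marks equal change. Grem1, Pappa and Aqp2 lie above the line and Nr1d1, Slc38a3 and Bcat1 lie near 0 in males.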

How the data were processed

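Poly(A) RNA from kidneys was sequenced in 24 libraries. The deposited table holds the authors' normalized counts for 19399 genes, a signal in which each value is whole reads divided by 1 size factor per library. Per the submitters' processing notes, the tools were Trim Galore, featureCounts, Subread and DESeq2, on mm10; for the aligner, the annotation and the use of strand nothing is given in the sources used here. Whole reads were recovered for 100.0% of values within 0.01 read. Gene names came from the table for 17681 rows and from GENCODE M21 for 1619, among them 23 that had turned into dates.

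A gene entered the test where 5 or more libraries had a value of 10 or higher (17592 genes; 1807 did not). limma 3.58.1 (R 4.3.3, trended and robust prior) was fitted to log2(value + 1) over all 24 libraries with 1 coefficient per sex and treatment, so fold changes understate the change of low genes. Benjamini-Hochberg adjusted p below 0.05 counted as called. edgeR 4.0.16 and DESeq2 1.42.0 on the recovered reads, other pseudocounts, filters, scalings, covariates, library weights, replicate blocks and left-out libraries were alternatives. Counts were simulated for the deprived against watered females over 17592 genes. In them the limma test recovered 74% of 100 genes changed 1.5-fold and 98% of 100 changed 2-fold, with 15 false among 187 calls. Whether these rates hold for genes with low counts, or with a library that stands apart as deprived female 1 did, was not tested. Exact permutation tests over the 462 splits of 11 female libraries served for single values. Promoter windows are from RefSeq on GRCm38.p6, and all 10 genes asked for matched, with 14 windows.

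The groups and gene lists were chosen with earlier results of these data known. Named genes are the 25 largest rises and 25 largest falls that were called, given a mean of 50 or higher and a gene name, the 15 called genes of smallest p, and called members of the lists, plus genes set to be shown whatever their value. List members that were not called, overlapping neighbours and genes marked so in the text were picked after their values were seen. Not every gene taken by that rule is reported here, but all of them are in the counts.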

Additional observations from a re-analysis of the deposited data

Results flagged for a closer look

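Of 296 groups of 5 or 6 values checked, 20 had 1 library far from the others by Dixon's 95% criterion, where chance gives about 1 in 20. Deprived female 1 was that library in 10 of the 20, and the part of its tissue balance in these values was not tested. In it, normalized counts of Pappa (284, others 617 to 677), Nfat5 (1874, others 2840.4 to 3045), Slc12a3 (23658, others 41332 to 44972), Vdr (3217, others 4138 to 4359) and Synpo (1205, others 1574 to 1646) were low. Those of Id4 (1382, others 883 to 977), Ctsk (191, others 126 to 137), Fxyd4 (867, others 561 to 608), Atp1b3 (2818, others 2324 to 2414) and Rpl3 (9837, others 7726 to 8312) were high.

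Deprived female 5 was high for Smoc2 (445, others 379 to 391) and Pde4d (763, others 435 to 522) and low for Cldn19 (858, others 978 to 1009). Deprived female 3 was low for Cd3d (3.96, others 9.59 to 11.7) and deprived female 4 for Rpl32l (1.92, others 5.48 to 6.7). Among watered females, replicate 1 was low for Slc6a12 (68.7, others 94.4 to 106) and Kif23 (94.8, others 137 to 158). Replicate 2 was high for Slc22a6 (9926, others 8266 to 8738), replicate 3 for Cml2 (366, others 265 to 302) and replicate 6 for mt-Atp6 (3299.8, others 2398 to 2718).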

How the results depend on the processing

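The count of 139 changed genes stayed within 1.5 times under other pseudocounts, filters and TMM scaling. It also did so with the females fitted alone (173 genes, 105 shared), without trend and robust prior (118 genes), and with edgeR (172 genes, 136 shared). Of the 69 named genes that were called, 14 lost the call with the females alone and 13 without trend and robust prior. Without watered female 6 and deprived female 1 the count was 107 (87 shared). It came to 364 with DESeq2 (136 shared), 1003 with weights per library, 353 with the medulla to cortex balance as covariate, 230 with ENSMUSG00000119584 as covariate, 741 without the 4 libraries high in that gene, and 2 when deprived female 5 was put with the watered group. With 1 library left out at a time it was 66 to 215. Genes whose female and male responses differed numbered 0 by limma, 30 by DESeq2, 9 with weights per library, 9 without the 4 libraries and 4 with either covariate, and 0 to 3 when 1 library was left out. The cause of these shifts was not tested. Deviations of same-numbered female libraries correlated at -0.12 to 0.16 by title or code number. These values cannot show whether such libraries share more than a number, and male libraries were not checked in this way. A replicate block gave 104 changed genes by either number and 2 differing between the sexes.

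Over 149 named genes, 5534 gene and setting pairs kept the call and the direction, 435 lost the call, 109 gained it and 22 changed sign, all 22 in genes that were not called. Nfat5 (-0.01) was 0.06 with library weights, 0.07 without watered female 6 and deprived female 1 and without the 4 libraries, 0.00 with the balance covariate, 0.02 with the block by code number and -0.06 to 0.12 over the fits with 1 library left out. Over those fits Slc12a1 ran from -0.07 to 0.02, Slc12a3 from -0.18 to 0.07, Star from -0.14 to 0.03 and Csf3r from -0.12 to 0.14. Slc12a1 was also 0.02 with deprived female 5 as watered, and Star 0.02 with weights and 0.04 without those 2 or 4 libraries, and Cfd was -0.06 by edgeR and -0.05 by DESeq2. Low counts limit Aqp5 and Grem1, whose watered values correspond to few reads.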
